A study of Mus musculus with 18 samples.

Results

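Side population cells of the mouse thyroid were compared with the remaining, main population cells of the same kind of gland, in animals without surgery. The comparison used 9 of the 18 arrays of the series: all 6 of the control side population (CSP) and all 3 of the control main population (CMP), chosen by their labels. Mice were C57BL/6 of both sexes, and neither group had a partial thyroidectomy. Collagenase and dispase 1 freed the cells of the thyroid, which were kept in culture for 2 days before they were stained with the DNA dye Hoechst 33342, with and without verapamil, and sorted by flow cytometry. The age of the mice and the number pooled for each array are not given in the sources used here; the series calls the arrays of a group biological replicates. Antisense RNA was amplified, labelled with Cy5 and hybridised to a two-colour Agilent array together with a Cy3-labelled reference, a total RNA mixture of several Swiss Webster mouse tissues, with no dye swap. Each value is the log2 ratio of a sample over that reference, so a gene can be compared between arrays but its level cannot be set against that of another gene.

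A side population is defined by what its cells do with a dye: membrane pumps of the ABC family export Hoechst, so the cells appear dim, and verapamil blocks the pumps and serves to set the gate. In many organs the gate holds stem or progenitor cells, and in many it also holds endothelial and connective tissue cells with active pumps. The thyroid itself is built of follicles, closed spheres of polarised epithelial cells that take up iodide and make thyroid hormone, wrapped in a dense net of fenestrated capillaries with pericytes and fibroblasts between them, and of scattered C cells that make calcitonin.

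On the 9 arrays, the share of spots well above background in Cy5 ran from 40.7% to 72% and was lowest on CSP 1 (40.7%), CSP 2 (41%) and CMP 3 (45.8%). The arrays lay on 5 slides, and only slide 4 (CSP 5, CSP 6 and CMP 2) held both groups; slides 1 and 5 held the 3 arrays with the lowest shares. Array profiles correlated at 0.831 to 0.949 within CSP, 0.855 to 0.947 within CMP and 0.634 to 0.805 between the groups (Pearson's r across genes, which are not independent replicates). One array stood apart within its group. CSP 6 had the highest of the 6 CSP values for 873 of 1718 genes called lower in CSP (50.8%; the other CSP arrays 6.87% to 12.9%), and the lowest for 475 of 1922 genes called higher (24.7%). The median of the thyroid follicular markers shows it: CSP 6 was at 1.70, between the other CSP arrays (-0.24 to 0.13) and the CMP arrays (3.59, 3.17 and 2.87). Without CSP 6, 3763 genes were called.

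Without slides 1 and 5, an alternative chosen after seeing the data, 2403 were called. With all 9 arrays, 3646 of 20257 genes tested differed between the populations (18%; limma's moderated test, Benjamini-Hochberg adjusted p under 0.05). Of these, 1926 were higher in CSP (9.51% of the genes tested) and 1720 lower (8.49%); 1638 and 1444 differed at least 2-fold. The median difference over all genes was 0.06. The CSP and CMP arrays did not overlap for 4094 genes (20.2%), 2259 of them higher in CSP (11.2%) and 1835 lower (9.06%). Differences below are CSP minus CMP on the log2 scale with their standard error, from 6 CSP and 3 CMP arrays.

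**Figure D1:**
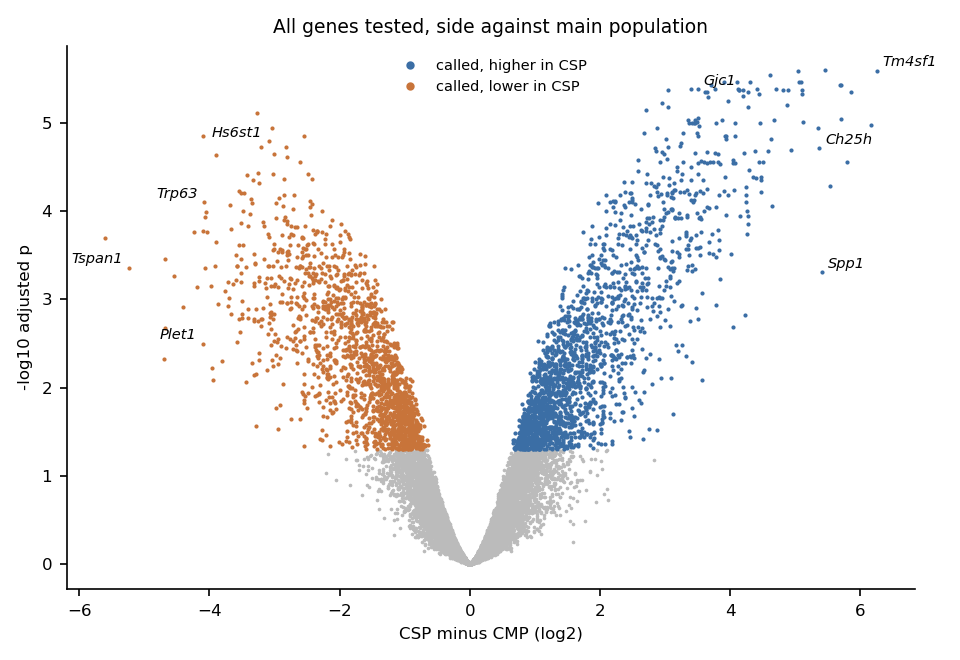
Each point is 1 of the genes tested: the difference of CSP from CMP (log2, horizontal) against the adjusted p (as -log10, vertical), with called genes coloured by direction. The largest named increase is that of Tm4sf1 (6.25), and Tspan1 (-5.23) and Plet1 (-4.10) lie far to the left.

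The labels were first set against markers. The 3 pumps that export Hoechst, Abcg2, Abcb1a and Abcb1b, were all higher in CSP, by 2.98, 3.24 and 3.05. All 7 endothelial markers (median difference 4.06) and all 7 fibroblast markers (3.57) were higher, as were 4 of 6 of pericytes and smooth muscle (2 without CMP 1 or without CMP 2). Of the fibroblast markers, 6 were called without CMP 1 and 5 without CMP 2. Lower were 7 of 9 thyroid follicular markers tested (median -2.95) and all 7 of general epithelium (-3.23), 6 of them without CMP 2. Without slides 1 and 5, 6 endothelial and 4 fibroblast markers were called higher, and 6 follicular and 5 general epithelial markers lower. Of 7 leukocyte markers 2 were lower (Adgre1 and Cd68) and none higher, and of 4 C cell markers 2 were higher (Calca and Scg2). Calca lost its call without CMP 1 (adjusted p = 0.0935), and none of the 4 was called without slides 1 and 5. Epithelial RNA was not absent from CSP: thyroglobulin, Tg, lay at 2.75 to 5.27 on the CSP arrays (median 4.22), against 5.23, 6.13 and 4.50 on the CMP arrays, and its difference of -1.18 ± 0.517 (adjusted p = 0.143) was not called. With median centring in place of loess it was called (-2.53, adjusted p = 0.0306). The side population arrays also differed among themselves, since the median of the endothelial markers ran from 0.70 on CSP 6 to 2.74 on CSP 5 and that of the fibroblast markers from -1.87 on CSP 3 to 0.90 on CSP 2. On CMP arrays these medians lay at -2.38 to -1.34 and at -4.34 to -3.31, although each of the 14 markers was well above background on at least 2 of the 3 arrays. These are bulk samples, so fewer cells of a type and less RNA per cell cannot be told apart in any value that follows, and the part of these cell types in each result was not tested.

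The 12 largest changes in each direction were taken among genes with no overlap of the groups, leaving out 16 genes known from earlier results of these data, some with larger changes (Tm4sf1, Tspan1 and Atp1b1, given below). The 12 increases include genes of connective tissue and vessels. Vimentin (Vim), an intermediate filament of mesenchymal cells, lay between 2.37 and 3.52 in CSP (median 2.73), and at -2.28, -2.57 and -3.06 in CMP. The difference was 5.46 ± 0.281 (adjusted p = 2.55e-06). Separation of the groups was a condition of this choice, here and for the decreases below, and is not a result. Ch25h, which makes 25-hydroxycholesterol, lay between 2.59 and 5.33 on the CSP arrays (median 4.25) and at -0.60, -1.45 and -1.51 on the CMP arrays. Its difference was 5.36 ± 0.477 (adjusted p = 1.93e-05). The opioid precursor proenkephalin (Penk) was higher by 5.06 ± 0.311 (adjusted p = 3.47e-06) and the matrix protease Mmp3 by 5.35 ± 0.443 (adjusted p = 1.15e-05). Another Penk probe gave 2.56. Also among the 12 were Spp1 (5.41), Vwf (5.12), Depp1 (5.11), Ntrk2 (5.09), Procr (5.04), Pdgfrb (4.89) and Calcrl (4.87).

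The 12 largest decreases by the same rule include genes of epithelial structure and fate. Plet1, a surface protein of epithelial progenitors, lay at -2.70 to 1.99 on the CSP arrays (median -0.64), against 3.69, 3.67 and 3.59 on the CMP arrays. Its difference was -4.10 ± 0.788 (adjusted p = 0.00317). CSP 6 and CSP 3 were its highest side population arrays. Desmoplakin (Dsp), which anchors keratins to desmosomes, lay between -4.14 and -3.01 in CSP (median -3.83), and at 1.34, 0.88 and -1.21 in CMP. Its difference was -4.07 ± 0.473 (adjusted p = 0.000118). The keratin Krt18 fell by 3.96 ± 0.846 (adjusted p = 0.00592), the surface protein Cd24a by 3.89 ± 0.496 (adjusted p = 0.000222) and the basement membrane chain Col4a4 by 3.86 ± 0.631 (adjusted p = 0.00113). Another Col4a4 probe gave -1.12. The interleukin 18 receptor Il18r1 (-4.07), Cdca7l (-4.09), Clip4 (-4.05), Slc16a11 (-3.97), Rnf128 (-3.91), Aif1l (-3.81) and Trp63 (-4.08) complete the 12.

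Beyond these, 42 gene families and pathways were described, each by the number of tested members called and the median difference, beside the 9.51% higher and 8.49% lower of all genes. More members were called higher than lower in 30 of the 42, a balance that changed with the scaling: with median centring in place of loess it was 19. The median of all genes was then -0.09, and 34.2% of the calls were higher, against 52.8%. In many families a count of 1 or 2 in a direction changed by 1 on leaving out 1 array; larger moves are given with the family.

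**Figure D2:**
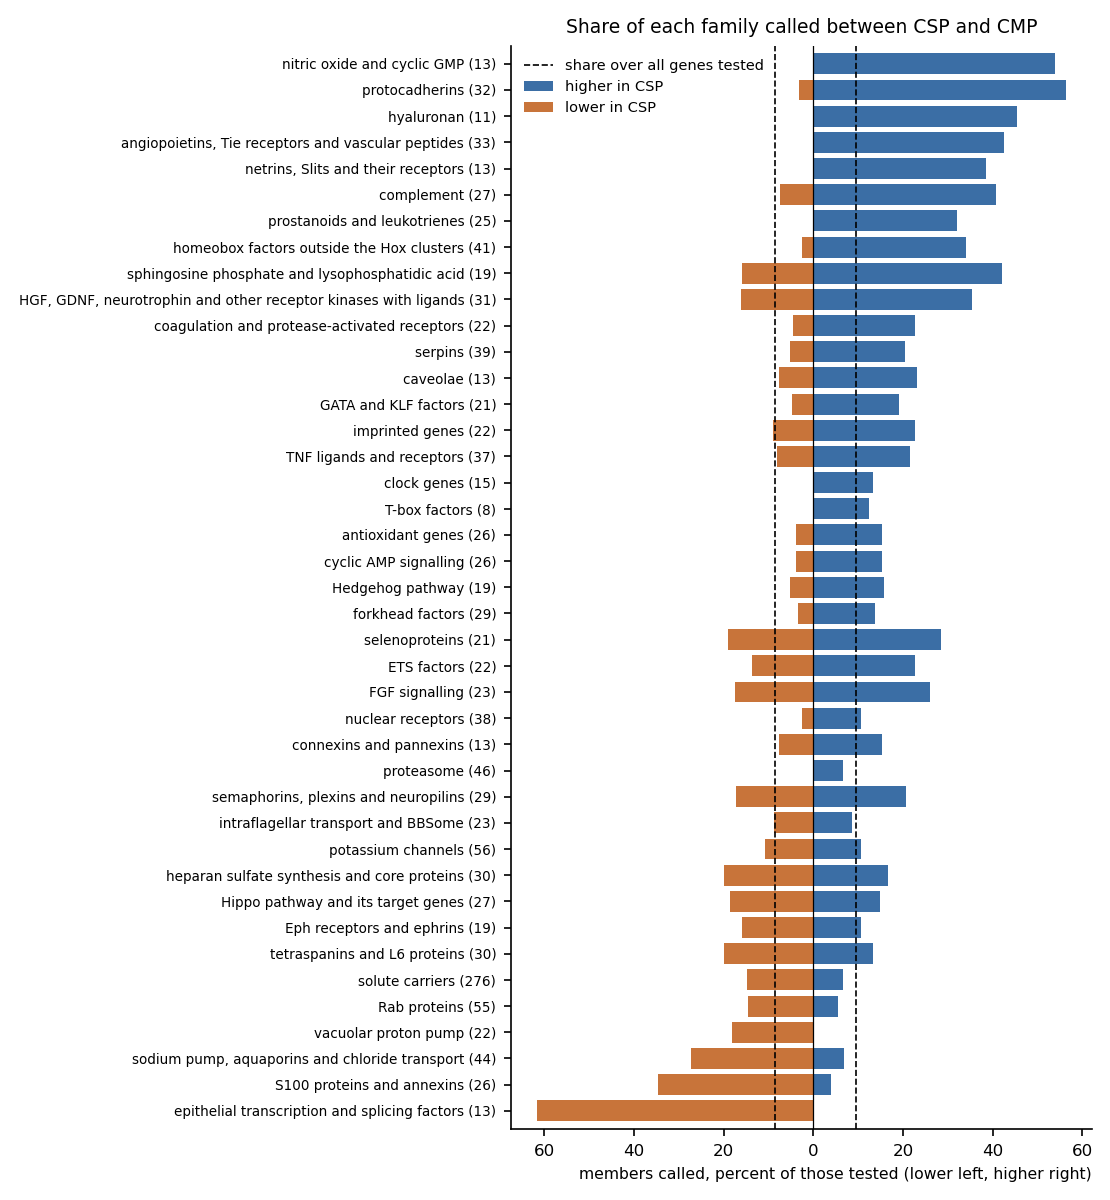
Bars give the share of the tested members (number in brackets) of the families named in the text that are called higher in CSP (right) or lower (left), in percent, and dashed lines the 9.51% and 8.49% of all genes tested. Nitric oxide signalling and protocadherins stand at the top and epithelial transcription and splicing factors, with 8 of 13 lower, at the bottom.

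Several transcription factors known from vessels and stroma were higher in CSP, and several known from epithelium lower. ETS factors share a DNA-binding domain and divide into members that specify endothelium and blood and members that act in epithelia. Of 22 tested, 5 were higher and 3 lower in CSP, with a median of 0.11. Without CMP 3, 2 were higher and 2 lower. Erg, an endothelial member, lay between 1.60 and 3.63 on the CSP arrays (median 2.66) and at -1.01, -1.20 and -0.75 on the CMP arrays, and its difference was 3.67 ± 0.412 (adjusted p = 9.26e-05). Fli1, its nearest relative, lay at -0.93 to 1.32 on the CSP arrays (median 0.27), against -3.15, -3.02 and -3.43 on the CMP arrays. Its difference was 3.47 ± 0.453 (adjusted p = 0.000261), and another probe gave 1.58. Every CSP array was above every CMP array for both. The epithelial members went the other way. Elf3 lay between -0.31 and 2.28 in CSP (median -0.15), and at 2.73, 2.91 and 3.04 in CMP, a difference of -2.60 ± 0.493 (adjusted p = 0.00293), with CSP 6 alone close to the CMP range. Ehf was not well above background on any CSP array, and CMP exceeded it at least 4.36-fold (-2.31 ± 0.324, adjusted p = 0.000417; another probe gave -0.18). Ets1 (1.31), Elk3 (1.26) and Elf5 (-0.91) were called with smaller differences, and each call was lost on leaving out 1 array: Ets1 without CMP 3 (adjusted p = 0.0913), Elk3 without CMP 2 (0.137) or CMP 3 (0.0513) and Elf5 without any 1 of CSP 1, CSP 2, CSP 5 and the CMP arrays (0.0675 to 0.109).

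Epithelial transcription and splicing factors had the lowest median of the 42 families, -1.87, with 8 of 13 lower (61.5%) and none higher. By array, that median lay between -1.12 and 0.12 on CSP, highest on CSP 6, and between 1.32 and 1.75 on CMP. Trp63 encodes p63, the factor of basal epithelial cells, and lay between -2.69 and -0.47 on the CSP arrays (median -1.85) and at 2.75, 2.42 and 1.49 on the CMP arrays, a difference of -4.08 ± 0.448 (adjusted p = 7.87e-05); it was well above background on 1 of 6 CSP arrays, CSP 6 being highest. The grainyhead factors, which drive junction genes, were lower: Grhl2 fell by 3.19 ± 0.556 (adjusted p = 0.00169) and Grhl1 by 2.42 ± 0.423 (adjusted p = 0.0017). Esrp1, which imposes epithelial exon choice on receptors such as Fgfr2, fell by 2.39 ± 0.374 (adjusted p = 0.000865). Without CSP 6, 8 members were again called lower.

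**Figure D3:**
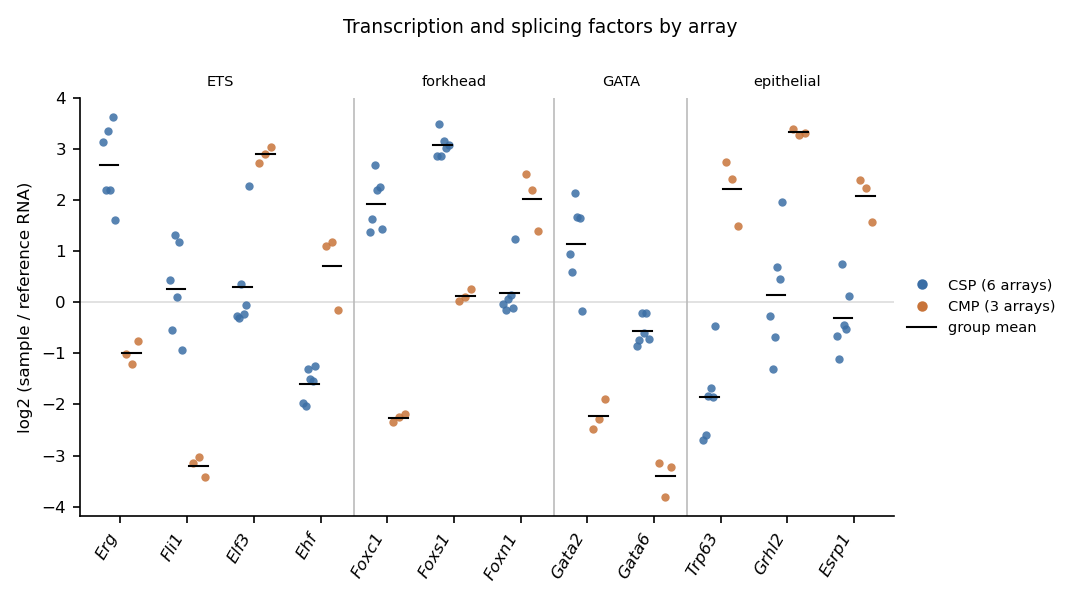
Points are the log2 ratios to the reference of single arrays, 6 CSP and 3 CMP for each gene, and bars the group means. Erg, Fli1, Foxc1, Foxs1, Gata2 and Gata6 are higher on every CSP array than on any CMP array, and Elf3, Ehf, Foxn1 and the epithelial factors lower on every CSP array than on any CMP array.

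Of 29 forkhead factors 4 were higher and 1 lower (median 0.10). Foxc1, needed for vessels and periocular mesenchyme, lay at 1.38 to 2.68 on the CSP arrays (median 1.91), against -2.35, -2.25 and -2.19 on the CMP arrays, the largest difference of the family at 4.20 ± 0.306 (adjusted p = 4.95e-06). Foxs1, a factor of pericytes and sensory neurons, lay between 2.86 and 3.48 in CSP (median 3.05), and at 0.02, 0.10 and 0.26 in CMP. Its difference was 2.95 ± 0.221 (adjusted p = 6.07e-06). All 6 CSP values of Foxs1 lay close together and far above CMP. Foxf2 was higher by 1.62 ± 0.28 (adjusted p = 0.00163) and Foxn1, of thymic and skin epithelium, lower (-1.84 ± 0.345, adjusted p = 0.00276). Foxn1 was well above background on 1 of 6 CSP arrays. Foxo1 was called (1.52 ± 0.405, adjusted p = 0.0205), but not without any 1 of the CMP arrays (adjusted p 0.0552 to 0.0838). The core members Foxf1 (0.84 ± 0.453, adjusted p = 0.246) and Foxa2 (-0.07 ± 0.498, adjusted p = 0.95) were not called. Of 21 GATA and Krüppel-like factors 4 were higher and 1 lower (median 0.12; 2 were called without CMP 1, 3 were called without CMP 2). Gata2, of endothelium and blood progenitors, lay between -0.17 and 2.14 on the CSP arrays (median 1.29) and at -2.49, -2.28 and -1.90 on the CMP arrays (3.36 ± 0.435, adjusted p = 0.000241), and Gata6 at -0.86 to -0.21 on the CSP arrays (median -0.66), against -3.15, -3.81 and -3.22 on the CMP arrays (2.84 ± 0.253, adjusted p = 1.93e-05; another probe gave 0.49). Neither Klf2 (0.13 ± 0.509, adjusted p = 0.904) nor Klf5 (-1.12 ± 0.417, adjusted p = 0.0853) was called. Klf5 was called with the mean of its probes (-1.71, adjusted p = 0.00898), with median centring (-1.66, 0.0273) and without CMP 2 (-1.56, 0.0417).

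Homeobox factors outside the Hox clusters were higher in 14 of 41 cases and lower in 1 (median 0.23), which is 34.1% against 9.51% of all genes. Lhx6 and Dlx2, which pattern jaw mesenchyme and migrating interneurons, were higher by 3.52 ± 0.412 (adjusted p = 0.000121) and 3.16 ± 0.368 (adjusted p = 0.000118). Each was well above background on 1 of 3 CMP arrays. Meox1 (2.92 ± 0.355, adjusted p = 0.000159) and Meox2 (2.90 ± 0.479, adjusted p = 0.0012), of somites and vessels, rose as well. Prrx1, of limb and wound fibroblasts, was higher by 1.48 ± 0.354 (adjusted p = 0.0114; another probe gave 0.49), a call lost without CMP 1 (adjusted p = 0.0676) or CMP 2 (0.0553). Without CMP 1, and again without CMP 2, 10 of the 41 were higher. Of 38 nuclear receptors 4 were higher (10.5%, near the 9.51% of all genes) and 1 lower (2.63%), with a median of 0.25. Without CMP 2, 3 were called. Nr2f1, an orphan receptor, was well above background on all CSP arrays and on no CMP array, at least 4.95-fold higher (3.09 ± 0.489, adjusted p = 0.00092). The retinoic acid receptor Rarb was higher by 2.18 ± 0.287 (adjusted p = 0.000274). Pparg (1.85 ± 0.447, adjusted p = 0.0121) and the thyroid hormone receptor Thrb (1.33 ± 0.378, adjusted p = 0.0284; another probe gave 0.19) lost their calls on leaving out CMP 1 (adjusted p = 0.0691 for Pparg, 0.12 for Thrb) or CMP 2 (0.0576 for Pparg, 0.139 for Thrb), Thrb also without CSP 5 (0.0515). Thra, the other thyroid hormone receptor gene, was not called (0.50 ± 0.311, adjusted p = 0.315). Of 8 T-box factors Tbx18, of mural cells, was the one called (2.46 ± 0.498, adjusted p = 0.00433; 2 were called without CSP 1 or CSP 4).

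In several families of vascular signalling members were called higher and none lower. Of 33 angiopoietins, Tie receptors and vascular peptide genes 14 were higher and none lower (42.4%; median 0.57; 1 was lower without CSP 1 or without CSP 6), and the median lay at 0.15 to 0.31 on the CSP arrays against -1.18 to -0.81 on the CMP arrays. Calcrl, the receptor of adrenomedullin and CGRP, lay between -0.96 and 0.82 in CSP (median -0.25), and at -5.07, -4.98 and -5.09 in CMP. Its difference was 4.87 ± 0.367 (adjusted p = 6.35e-06). Its 3 CMP values were nearly alike and all far under the lowest CSP array. The apelin receptor Aplnr lay between 1.97 and 3.62 on the CSP arrays (median 3.07) and at -0.97, -1.18 and -0.52 on the CMP arrays (3.81 ± 0.358, adjusted p = 2.79e-05). Angpt2, an endothelial ligand that loosens vessels, lay at 3.06 to 4.96 on the CSP arrays (median 4.33), against 2.16, 0.85 and 0.12 on the CMP arrays (3.18 ± 0.479, adjusted p = 0.000656), and its receptor Tek between -0.55 and 2.09 in CSP (median 1.28), and at -1.28, -1.80 and -1.45 in CMP (2.50 ± 0.471, adjusted p = 0.00279). The endothelin receptor Ednra was higher by 3.42 ± 0.278 (adjusted p = 1.02e-05). The orphan receptor Tie1, partner of Tek, was higher by 2.28 ± 0.359 (adjusted p = 0.000917), and Robo4, which keeps vessels tight, by 3.16 ± 0.37 (adjusted p = 0.00012).

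The promoters of Tie1 and Robo4 are shown because both genes are textbook targets of ETS factors in endothelium and rose with Erg and Fli1. Printed are the 250 bases before the start in RefSeq (build GRCm38.p6), 5′ to 3′ on the gene's strand. Capitals mark the ETS motif AGGAAG, or CTTCCT for the other strand. Other GGAA or TTCC stretches, without the full motif, were left in lower case and not counted.
Robo4, chr9:37401722-37401971, plus strand: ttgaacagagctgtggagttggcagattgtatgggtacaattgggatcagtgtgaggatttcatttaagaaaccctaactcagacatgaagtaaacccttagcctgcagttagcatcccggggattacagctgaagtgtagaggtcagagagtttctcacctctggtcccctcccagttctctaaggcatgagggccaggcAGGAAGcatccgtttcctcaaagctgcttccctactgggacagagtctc
Tie1, chr4:118489850-118490099, minus strand: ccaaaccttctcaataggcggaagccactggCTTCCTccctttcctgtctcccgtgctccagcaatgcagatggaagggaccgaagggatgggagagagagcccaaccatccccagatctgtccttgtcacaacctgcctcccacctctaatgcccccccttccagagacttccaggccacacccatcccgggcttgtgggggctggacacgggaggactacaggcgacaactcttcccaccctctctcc
Each window held 1 match to the full motif. A match on either strand was found in 29.2% of all 27025 promoters of this length, in 28.8% of the 1144 genes called higher that matched the table by symbol and in 27.7% of the 1136 called lower.

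Nitric oxide relaxes vessels through guanylate cyclase, cyclic GMP and protein kinase G, and phosphodiesterases end the signal. Of 13 genes of this chain 7 were higher and none lower (53.8%; median 1.51). The endothelial synthase Nos3 lay between 1.52 and 3.00 on the CSP arrays (median 1.76) and at -0.22, -0.45 and -0.47 on the CMP arrays (2.40 ± 0.334, adjusted p = 0.000395). Gucy1b1, the haem-binding subunit of guanylate cyclase, lay at -0.99 to 1.38 on the CSP arrays (median -0.38), against -3.79, -4.05 and -3.90 on the CMP arrays (3.81 ± 0.464, adjusted p = 0.000163), although other probes of it gave as little as 0.94. The kinase gene Prkg1 was higher by 1.51 ± 0.25 (adjusted p = 0.00122). So were the phosphodiesterases Pde1a (3.64 ± 0.378, adjusted p = 5.64e-05) and Pde1b (3.02 ± 0.26, adjusted p = 1.52e-05). Members of each step of the chain, synthase, cyclase, kinase and phosphodiesterase, were among the 7.

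Prostanoids are lipid signals made from arachidonic acid, and their genes had 8 of 25 higher and none lower (32%; median 0.31; 1 was lower without CMP 3). Cyclooxygenases 1 and 2 start the synthesis. Ptgs1 lay between 1.18 and 2.44 in CSP (median 1.67), and at -2.41, -2.45 and -1.38 in CMP (3.82 ± 0.348, adjusted p = 2.25e-05), and Ptgs2 between 5.34 and 6.56 on the CSP arrays (median 5.74) and at 2.71, 3.45 and 1.70 on the CMP arrays (3.25 ± 0.379, adjusted p = 0.000119). Prostacyclin synthase, Ptgis, lay at -0.54 to 1.64 on the CSP arrays (median 1.01), against -2.53, -2.64 and -1.64 on the CMP arrays (2.98 ± 0.461, adjusted p = 0.000788), and the prostacyclin receptor Ptgir between 1.18 and 3.42 in CSP (median 2.45), and at -0.64, -0.92 and -0.78 in CMP (3.21 ± 0.43, adjusted p = 0.000303); another probe of Ptgir gave 0.00. Of the 19 genes of sphingosine phosphate and lysophosphatidic acid, lipid signals of vessels and platelets, 8 were higher and 3 lower (median 0.43). Higher were the receptors S1pr1 (3.67 ± 0.49, adjusted p = 3e-04), S1pr3 (2.86 ± 0.257, adjusted p = 2.1e-05; another probe gave 0.11), Lpar4 (3.23 ± 0.339, adjusted p = 6.13e-05) and Lpar6 (2.39), and the enzyme Enpp2 (2.04), which makes lysophosphatidic acid. Lower were Lpar2 (-1.53 ± 0.261, adjusted p = 0.00151), the phosphatase Plpp2 (-1.82) and the lyase Sgpl1 (-1.60), which degrades sphingosine phosphate.

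**Figure D4:**
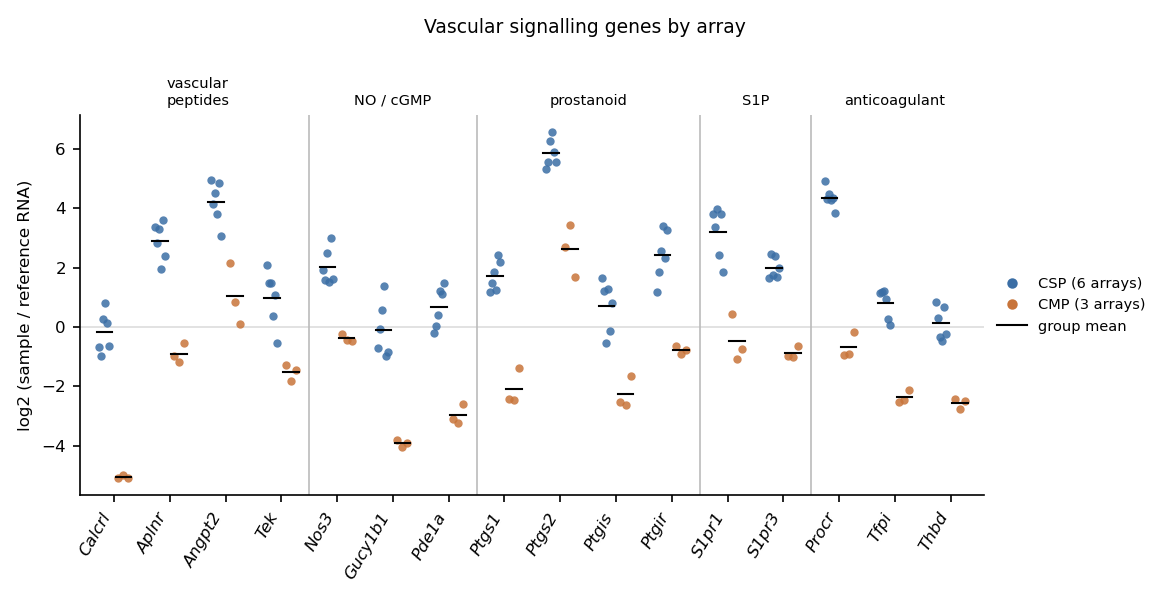
Points are the log2 ratios to the reference of single arrays (6 CSP, 3 CMP) and bars the group means, for genes of vascular peptides, nitric oxide, prostanoids, sphingosine phosphate (S1P) and anticoagulants. The lowest CSP array lies above the highest CMP array for each of the 16 genes.

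Several genes of natural anticoagulants were higher in CSP. Procr, the endothelial receptor of protein C, lay between 3.84 and 4.92 on the CSP arrays (median 4.33) and at -0.95, -0.92 and -0.15 on the CMP arrays. Its difference was 5.04 ± 0.281 (adjusted p = 2.58e-06). Thrombomodulin, Thbd, which turns thrombin into an activator of protein C, lay at -0.47 to 0.84 on the CSP arrays (median 0.04), against -2.42, -2.77 and -2.50 on the CMP arrays (2.70 ± 0.319, adjusted p = 0.000132). The tissue factor pathway inhibitors Tfpi and Tfpi2 were higher by 3.18 ± 0.305 (adjusted p = 3.17e-05) and 4.01 ± 0.538 (adjusted p = 0.000309). Tissue factor itself, F3, was at -1.44 ± 0.565 (adjusted p = 0.103) and not called, except without CSP 3 (adjusted p = 0.0408). The thrombin receptor F2r lay between -0.76 and 0.21 in CSP (median -0.18), and at 0.87, 1.09 and 0.26 in CMP; it was called lower (adjusted p = 0.0256) and lost its call without CMP 1 (adjusted p = 0.108), CMP 2 (0.137) or CSP 2 (0.0513). In all, 5 of 22 coagulation genes were higher and 1 lower (median 0.08). Complement genes were higher in 11 of 27 cases and lower in 2 (median 0.33). Cd93 (3.42 ± 0.49, adjusted p = 0.000475), the protease C1ra (3.29 ± 0.346, adjusted p = 6.05e-05) and Masp1 (2.75 ± 0.321, adjusted p = 0.000119) rose, Cd59a, which blocks the membrane attack complex, fell by 2.56 ± 0.335 (adjusted p = 0.00026), and C3 was not called (0.10 ± 0.392, adjusted p = 0.9). Of 39 serpins 8 were higher and 2 lower (median 0.18), led by Serpini1 (3.37 ± 0.453, adjusted p = 0.000313) and Serpine2 (2.72 ± 0.41, adjusted p = 0.000662); the intracellular Serpinb6b fell by 3.10 ± 0.574 (adjusted p = 0.00247), and the collagen chaperone Serpinh1 was not called (0.87 ± 0.34, adjusted p = 0.102).

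In the FGF family the stromal ligands Fgf7 and Fgf10, which signal to an epithelial form of Fgfr2, were higher and Fgfr2 lower. In all, 6 of 23 genes were higher and 4 lower (median 0.61). Without CMP 2, 2 were higher and 3 lower. Fgf7 lay between 1.21 and 3.96 on the CSP arrays (median 3.26) and at -0.70, -0.65 and -1.34 on the CMP arrays (3.79 ± 0.514, adjusted p = 0.000333), lowest on CSP 5. Fgfr2 lay at -2.48 to -0.99 on the CSP arrays (median -2.04), against 1.22, 0.75 and 0.17 on the CMP arrays (-2.66 ± 0.361, adjusted p = 0.000334), so that no CSP array reached the CMP range. Fgf10 was well above background on only 3 of 6 CSP arrays and on no CMP array. It was at least 2.04-fold higher (1.30 ± 0.325, adjusted p = 0.0147), a call lost without CMP 1 (adjusted p = 0.0638) or CMP 2 (0.0504). Fgfr1 was not called (0.24 ± 0.234, adjusted p = 0.554). Fgf1 (-2.41) and the FGF carrier Fgfbp1 (-2.51) fell, Fgfbp1 being well above background on 2 of 6 CSP arrays. The feedback inhibitor Spry2 rose by 2.42 ± 0.297 (adjusted p = 0.000169), and another probe gave 0.36.

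Among other receptor kinases and their ligands 11 of 31 were higher and 5 lower (median 0.30). Without CMP 2, 5 were higher and 5 lower. The collagen receptors differed in opposite directions: Ddr2, of fibroblasts, lay between 0.49 and 1.52 in CSP (median 0.86), and at -1.80, -1.99 and -1.49 in CMP (2.70 ± 0.275, adjusted p = 4.87e-05), and Ddr1, of epithelium, between -1.43 and 0.26 on the CSP arrays (median -1.25) and at 1.63, 2.71 and 2.70 on the CMP arrays (-3.38 ± 0.388, adjusted p = 0.000107). For Ddr1, 5 CSP arrays lay between -1.43 and -1.23 and only CSP 6 was higher. The neurotrophin receptor Ntrk2 lay at 0.56 to 1.77 on the CSP arrays (median 1.22), against -4.12, -4.15 and -3.32 on the CMP arrays (5.09 ± 0.322, adjusted p = 3.47e-06), with its 3 probes between 0.20 and 5.09, and its ligand Bdnf was higher by 2.00 ± 0.4 (adjusted p = 0.00406). Ntf5, another ligand of that receptor, was lower (-2.55 ± 0.421, adjusted p = 0.0012), and the GDNF family ligand Artn (-1.58 ± 0.272, adjusted p = 0.00154). Neither Hgf (0.15 ± 0.223, adjusted p = 0.707) nor its receptor Met (0.04 ± 0.279, adjusted p = 0.942) was called. Kitl, the ligand of Kit, was higher by 2.05 ± 0.483 (adjusted p = 0.0106; another probe gave 0.25), a call lost without CMP 3 (adjusted p = 0.0623).

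**Figure D5:**
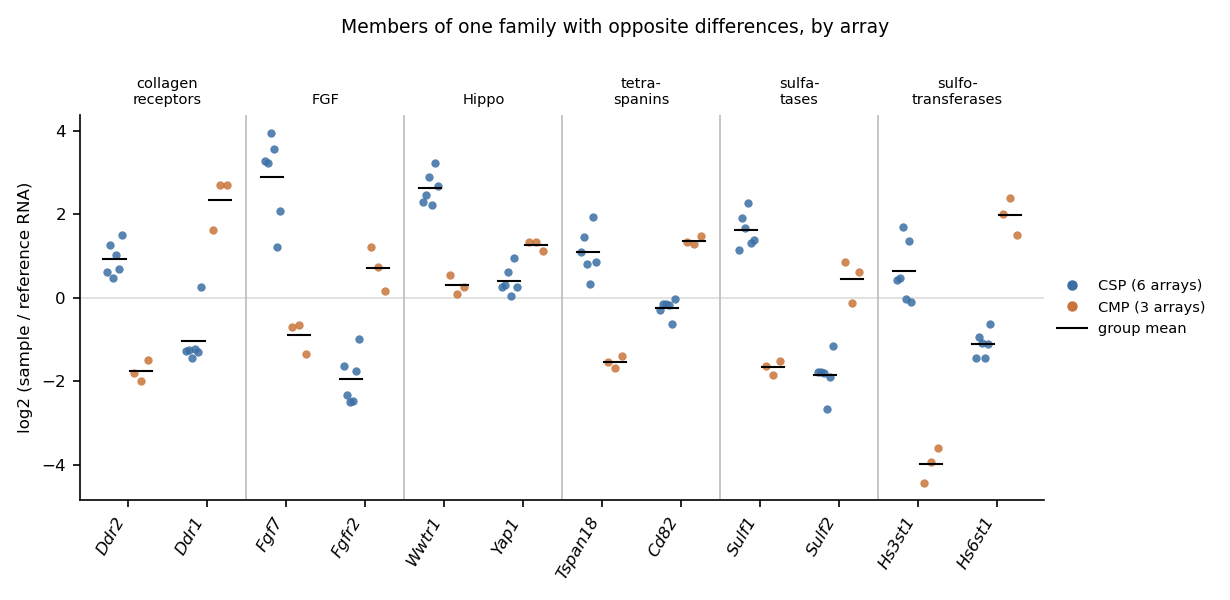
Points are the log2 ratios to the reference of single arrays (6 CSP, 3 CMP), with bars for group means, for 6 pairs of genes from the same family or pathway. In each pair the first gene is higher on every CSP array than on any CMP array and the second lower.

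In the Hedgehog pathway 3 of 19 genes were higher and 1 lower (median 0.11; 2 were called without CMP 2). Gli3, the factor that acts mainly as a repressor without ligand, lay between 1.55 and 3.04 in CSP (median 2.76), and at -1.34, -1.36 and -0.46 in CMP (3.60 ± 0.339, adjusted p = 2.79e-05), and the inhibitor Sufu was higher by 1.35 ± 0.238 (adjusted p = 0.00177; another probe gave 0.26). Gli1 (-0.02 ± 0.203, adjusted p = 0.967) and Ptch1 (0.07 ± 0.349, adjusted p = 0.926), which report active signalling, were not called. The co-receptor Cdon was lower (-2.31 ± 0.552, adjusted p = 0.0115), a call lost without CMP 2 (adjusted p = 0.0605). The Hippo pathway restrains the coactivators YAP and TAZ by phosphorylation. Of its 27 genes 4 were higher and 5 lower (median -0.14). Without CMP 1, 2 were higher and 2 lower, without CMP 2, 3 and 2, and without CSP 2, 4 and 2. Wwtr1, which encodes TAZ, lay between 2.22 and 3.23 on the CSP arrays (median 2.57) and at 0.55, 0.10 and 0.26 on the CMP arrays (2.33 ± 0.267, adjusted p = 0.000106), while Yap1 was lower (-0.85 ± 0.244, adjusted p = 0.0288), a call lost without CSP 1, CSP 2, CMP 1 or CMP 2 (adjusted p 0.0526 to 0.109). The upstream scaffold Wwc1 (KIBRA) fell by 3.30 ± 0.458 (adjusted p = 0.000395). Of the target genes Ankrd1 fell by 2.74 ± 0.444 (adjusted p = 0.00108) and Ccn2 was not called (1.03 ± 0.396, adjusted p = 0.0985; without CSP 6, adjusted p = 0.017).

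Of 37 TNF ligands and receptors 8 were higher and 3 lower (median 0.35; 7 were called without CMP 2). Tnf lay at -0.13 to 0.12 on the CSP arrays (median -0.06), against 2.88, 2.35 and 2.29 on the CMP arrays (-2.55 ± 0.218, adjusted p = 1.42e-05), and its close relative, lymphotoxin alpha (Lta), between 0.10 and 3.28 in CSP (median 0.40), and at 4.38, 4.84 and 4.75 in CMP (-3.76 ± 0.584, adjusted p = 0.000806). All 6 CSP arrays lay close together for Tnf, whereas CSP 6 alone was high for Lta. Tnfrsf19 (3.10 ± 0.327, adjusted p = 6.19e-05), the death receptor Fas (1.53 ± 0.274, adjusted p = 0.00198) and the death ligand Tnfsf10, known as TRAIL (1.68 ± 0.355, adjusted p = 0.00564), were higher. The osteoclast factor Tnfsf11 was lower (-1.16 ± 0.305, adjusted p = 0.019) and its decoy receptor Tnfrsf11b higher by 1.59 ± 0.507 (adjusted p = 0.047). Leaving out CMP 1 or CMP 2 ended both calls (adjusted p 0.103 to 0.15). Tnfrsf11b also lost its call without CSP 2, CSP 3, CSP 6 or CMP 3 (0.0607 to 0.108).

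Guidance cues steer axons and vessels alike. Netrins, Slits and their receptors were higher in 5 of 13 cases and lower in none (median 0.66; 3 were called without CMP 1 or CMP 2), with Slit3 between -0.10 and 0.96 on the CSP arrays (median 0.39) and at -3.30, -3.44 and -2.64 on the CMP arrays (3.52 ± 0.289, adjusted p = 1.09e-05) and Unc5b higher by 1.96 ± 0.39 (adjusted p = 0.00397). Protocadherins were higher in 18 of 32 cases and lower in 1 (56.2%; median 1.34; without slides 1 and 5, 12 were higher). Pcdh7 lay at 1.59 to 3.47 on the CSP arrays (median 2.94), against -0.11, -0.80 and -1.04 on the CMP arrays (3.46 ± 0.37, adjusted p = 6.63e-05) and Pcdh17 was higher by 2.39 ± 0.43 (adjusted p = 0.00202), whereas Pcdh8 was lower (-1.17 ± 0.3, adjusted p = 0.0166; without CMP 2, adjusted p = 0.107) and Pcdh1 was not called (-0.21 ± 0.261, adjusted p = 0.653). Most members of the list are clustered genes such as Pcdhb14 (2.56), Pcdhb17 (3.09) and Pcdhb21 (2.70), near-identical copies that 1 probe may not tell apart, so the count is uncertain. Of 29 semaphorins, plexins and neuropilins 6 were higher and 5 lower (2 lower without CMP 1, 3 without CMP 3). Sema6a (3.19 ± 0.425, adjusted p = 0.000295, another probe -0.03), Sema6d (2.94 ± 0.313, adjusted p = 6.47e-05), Plxna4 (2.16 ± 0.328, adjusted p = 0.000704) and Nrp1 (1.39 ± 0.3, adjusted p = 0.00633) rose. Plxnb1 (-1.80 ± 0.305, adjusted p = 0.00143) and Plxna3 (-1.43 ± 0.278, adjusted p = 0.00337) fell, Plxna3 being well above background on 1 of 6 CSP arrays. Of 19 Eph receptors and ephrins 2 were higher (10.5%, near the 9.51% of all genes) and 3 lower (15.8%). Without CMP 1 or CMP 3, 3 were called, and without CMP 2, 2 were called. Epha3 was higher by 3.01 ± 0.448 (adjusted p = 0.000619), with its 3 probes between 0.67 and 3.01. Epha2, an epithelial receptor, was lower (-1.30 ± 0.268, adjusted p = 0.00498). The venous receptor Ephb4 (0.62 ± 0.366, adjusted p = 0.294) and the arterial ligand Efnb2 (-0.56 ± 0.474, adjusted p = 0.485) were not called.

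Of 13 connexins and pannexins, the channels of gap junctions and their relatives, 2 were higher and 1 lower. The vascular Gja4 lay between 0.75 and 2.33 in CSP (median 1.36), and at -2.34, -2.87 and -1.95 in CMP (3.76 ± 0.342, adjusted p = 2.21e-05) and the mural Gjc1 between 1.10 and 1.83 on the CSP arrays (median 1.43) and at -1.93, -2.28 and -2.03 on the CMP arrays (3.50 ± 0.237, adjusted p = 4.15e-06). Gja1, the most widespread connexin, was not called (0.97 ± 0.517, adjusted p = 0.238). Of 30 tetraspanins and L6 proteins 4 were higher and 6 lower (median -0.03; 2 were higher without CMP 2). Tm4sf1, an endothelial L6 protein, lay at 3.75 to 5.44 on the CSP arrays (median 4.29), against -1.60, -1.74 and -1.91 on the CMP arrays (6.25 ± 0.353, adjusted p = 2.58e-06), and Tspan18 was higher by 2.63 ± 0.321 (adjusted p = 0.000164). Tspan1 fell by 5.23 ± 0.741 (adjusted p = 0.000438), Cd81 by 2.49 ± 0.245 (adjusted p = 3.83e-05) and Cd82 by 1.61 ± 0.217 (adjusted p = 0.000325). Of 13 caveolar genes 3 were higher and 1 lower, with Ehd3 (4.28 ± 0.497, adjusted p = 0.000115) and Cavin3 (1.81 ± 0.321, adjusted p = 0.00186) higher and Pacsin3 lower (-1.78 ± 0.283, adjusted p = 0.000946). The coat genes Cav1 (0.60 ± 0.386, adjusted p = 0.34) and Cavin1 (-0.78 ± 0.281, adjusted p = 0.0755) were not called. Cavin1 was called without CSP 5 (adjusted p = 0.0237), with median centring (0.0336) and with the mean of its probes (0.0339).

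Genes of cell surface sugars differed in both directions. Heparan sulfate chains bind growth factors through sulfate groups that sulfotransferases add and the extracellular sulfatases Sulf1 and Sulf2 remove, and of 30 genes 5 were higher and 6 lower (median 0.00; 3 were higher without CMP 1 or without CMP 2). Sulf1 lay between 1.14 and 2.28 in CSP (median 1.53), and at -1.63, -1.85 and -1.50 in CMP (3.28 ± 0.276, adjusted p = 1.32e-05), and Sulf2 between -2.66 and -1.15 on the CSP arrays (median -1.79) and at 0.86, -0.12 and 0.61 on the CMP arrays (-2.29 ± 0.324, adjusted p = 0.000438). The 2 sulfatases thus differed in opposite directions, with no overlap of the groups for either. The sulfotransferase Hs3st1 lay at -0.10 to 1.69 on the CSP arrays (median 0.45), against -4.42, -3.94 and -3.59 on the CMP arrays (4.62 ± 0.399, adjusted p = 1.52e-05), and Hs6st1 between -1.44 and -0.63 in CSP (median -1.10), and at 2.02, 2.39 and 1.52 in CMP (-3.09 ± 0.268, adjusted p = 1.61e-05), while Hs6st2 was higher by 1.25 ± 0.274 (adjusted p = 0.00683). The core proteins Sdc4 and Agrn fell by 2.81 ± 0.374 (adjusted p = 0.000292) and 2.22 ± 0.323 (adjusted p = 0.000512), and Sdc1 (0.38 ± 0.378, adjusted p = 0.559) and Gpc3 (0.67 ± 0.317, adjusted p = 0.178) were not called. Hyaluronan, a long sugar of loose connective tissue, is spun by Has enzymes: 5 of 11 genes were higher and none lower (45.5%; median 0.57; 1 was lower without CSP 6). Has1 lay between 4.52 and 5.60 on the CSP arrays (median 5.31) and at 1.53, 0.81 and 1.22 on the CMP arrays (3.96 ± 0.294, adjusted p = 5.69e-06), Has2 was higher by 2.88 ± 0.493 (adjusted p = 0.00153), and Tnfaip6, which links hyaluronan chains, by 4.04 ± 0.383 (adjusted p = 2.87e-05). The receptor Stab1 rose by 2.72 ± 0.45 (adjusted p = 0.00123), and Lyve1 by 1.64 ± 0.403 (adjusted p = 0.0133), a call lost without CMP 1 (adjusted p = 0.0843) or CMP 2 (0.0687).

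In several families with epithelial members more genes were lower than higher. Of 26 S100 proteins and annexins 9 were lower (34.6%) and 1 higher, with a median of -0.78. Without slides 1 and 5, 5 were lower and the median was -0.4. By array, the median of this family overlapped between the groups, at 0.07 to 1.01 on CSP and 0.85 to 1.43 on CMP. Anxa1, a calcium-dependent membrane protein, lay at 1.68 to 4.05 on the CSP arrays (median 2.51), against 6.48, 5.83 and 4.59 on the CMP arrays (-3.05 ± 0.516, adjusted p = 0.0014), Anxa3 fell by 2.74 ± 0.435 (adjusted p = 0.000942), and S100a6 was not called (-1.01 ± 0.553, adjusted p = 0.253; without CSP 6, adjusted p = 0.0486). Of 55 Rab proteins, which direct vesicles, 8 were lower and 3 higher (median -0.13; 6 were called without CMP 1 or CMP 2 or CSP 1; 5 were lower without CSP 4). Rab25, of apical recycling, fell by 2.81 ± 0.459 (adjusted p = 0.00111), Rab38 by 1.98 ± 0.295 (adjusted p = 0.000619) and Rab3d, of regulated secretion, by 1.96 ± 0.315 (adjusted p = 0.001). The apical Rab17 was not called (-0.31 ± 0.232, adjusted p = 0.416) and Rab31 rose by 1.41 ± 0.237 (adjusted p = 0.00133; another probe gave -0.08).

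Several ion transport genes known from epithelium were lower. Of 44 genes of the sodium pump, aquaporins and chloride transport 12 were lower and 3 higher (27.3% lower; median -0.03; without slides 1 and 5, 7 were lower). The pump subunit Atp1b1 lay between -4.58 and -1.83 in CSP (median -3.98), and at 1.06, 0.63 and -0.21 in CMP (-4.24 ± 0.522, adjusted p = 0.000175), with CSP 6 the highest CSP array. The epithelial sodium channel subunits Scnn1a and Scnn1b fell by 2.75 ± 0.342 (adjusted p = 0.000181) and 3.02 ± 0.398 (adjusted p = 0.000275). Pump modulators differed by member, with Fxyd5 (2.89 ± 0.295, adjusted p = 4.9e-05) and Fxyd6 (2.49 ± 0.27, adjusted p = 7.13e-05; another probe gave 0.03) higher and Fxyd4 lower (-3.20 ± 0.558, adjusted p = 0.00169). Of 22 vacuolar proton pump genes 4 were lower, led by Atp6v0c (-1.28 ± 0.253, adjusted p = 0.00388), and none higher (median -0.46). Of 276 solute carriers 41 were lower and 18 higher (14.9% and 6.52%; without slides 1 and 5, 18 and 12). Slc26a7, an anion transporter of the follicular cell, lay between -1.40 and 0.68 on the CSP arrays (median -1.17) and at 2.67, 3.02 and 1.54 on the CMP arrays (-3.23 ± 0.474, adjusted p = 0.000554), Slc16a11 fell by 3.97 ± 0.603 (adjusted p = 0.000698), and Slc10a6 (2.92 ± 0.385, adjusted p = 0.000272) and the lactate exporter Slc16a3 (1.92 ± 0.394, adjusted p = 0.0048) rose. The glucose transporter Slc2a1 was higher by 1.06 ± 0.276 (adjusted p = 0.0182), a call lost without CMP 1 (adjusted p = 0.103) or CMP 2 (0.0718). Of 56 potassium channels 6 rose and 6 fell (3 fell without CMP 1). Each is 10.7%, near the 9.51% higher and 8.49% lower of all genes. Kcnj8, the pore of the mural cell channel that opens when ATP is low, rose by 2.26 ± 0.326 (adjusted p = 0.000492); Kcna5 was well above background on no CMP array and at least 4.38-fold higher (2.67 ± 0.355, adjusted p = 0.000295); Kcnk1 (-3.40 ± 0.59, adjusted p = 0.00164) and Kcnj16 (-2.56 ± 0.324, adjusted p = 0.000203) fell.

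The deiodinases, selenoproteins that activate or inactivate thyroid hormone, differed by member. Dio1, the follicular enzyme, lay at -2.08 to 0.47 on the CSP arrays (median -1.72), against 2.14, 2.02 and 1.46 on the CMP arrays (-3.23 ± 0.481, adjusted p = 0.000619). Dio3, which inactivates the hormone, was well above background on all CSP arrays and on no CMP array (2.66 ± 0.809, adjusted p = 0.0384). Its CSP values formed separate levels: CSP 1, CSP 2 and CSP 6 were at 3.52, 2.89 and 3.19, and CSP 3, CSP 4 and CSP 5 at -0.30, 0.02 and 0.49. The call was lost on leaving out any 1 of CSP 1, CSP 2, CSP 6 and the CMP arrays (adjusted p 0.0559 to 0.124). Dio2, which activates the hormone, was higher by 2.01 ± 0.575 (adjusted p = 0.0292), and lost its call without CSP 1, CSP 2, CMP 1 or CMP 2 (adjusted p 0.0504 to 0.124). Over 21 selenoproteins 6 were higher and 4 lower (median -0.05). Without CMP 1 or without CMP 2, 2 were higher and 2 lower, and without CMP 3, 2 and 4. Without CSP 1 or without CSP 2, 3 were higher and 3 lower. Selenom, of the endoplasmic reticulum, lay between 0.36 and 1.09 in CSP (median 0.80), and at -2.97, -3.20 and -2.08 in CMP (3.49 ± 0.293, adjusted p = 1.32e-05), Msrb1 fell by 2.22 ± 0.281 (adjusted p = 0.000208), and Gpx3, abundant in thyroid, was not called (-0.65 ± 0.403, adjusted p = 0.319).

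The proteasome degrades tagged proteins in every cell. Of 46 proteasome genes 3 were higher (6.52%) and none lower (median 0.18; 1 was called without CMP 1), and all 3 had small differences: Psmd10 (1.16 ± 0.254, adjusted p = 0.00707), Psma7 (0.86) and Psmg1 (0.76). Psma7 lost its call without CMP 1 (adjusted p = 0.126), and Psmg1 without any 1 array other than CSP 5 and CSP 6 (0.0501 to 0.139). The immune subunit Psmb8 was not called (0.11 ± 0.298, adjusted p = 0.854). Of 26 antioxidant genes 4 were higher and 1 lower (median 0.17; 3 were called without CMP 1), among them Nqo1 (1.71 ± 0.282, adjusted p = 0.00122) and Hmox1 (1.43 ± 0.331, adjusted p = 0.00958; without CMP 2, adjusted p = 0.0548). Of 15 clock genes 2 were higher (median 0.12; 1 was called without CMP 2 or CSP 1 or CSP 2 or CSP 4 or CSP 5). The repressor Nfil3 rose by 2.48 ± 0.311 (adjusted p = 0.000195), and the core genes Arntl (-0.40 ± 0.246, adjusted p = 0.312) and Dbp (-0.50 ± 0.226, adjusted p = 0.159) were not called. Of 26 cyclic AMP genes 4 were higher and 1 lower; 3 were called without CMP 1, led by the endothelial cyclase Adcy4 (3.59 ± 0.361, adjusted p = 4.45e-05); without slides 1 and 5, 1 was higher. Of 22 imprinted genes 5 were higher and 2 lower; 3 were called without CMP 1, 4 were called without CMP 2. Asb4 (3.13 ± 0.326, adjusted p = 5.84e-05) and Peg12 (1.97 ± 0.334, adjusted p = 0.00142) led, Snrpn was lower (-1.44 ± 0.374, adjusted p = 0.0179; without CMP 1, adjusted p = 0.113), and Igf2 (-0.27 ± 0.253, adjusted p = 0.528), H19 (0.40 ± 0.367, adjusted p = 0.527) and Dlk1 (0.08 ± 0.292, adjusted p = 0.901) were not called. Of 23 genes of intraflagellar transport and the BBSome, which build cilia, 2 were higher and 2 lower (median -0.10). Each is 8.7%, near the shares of all genes. Without CMP 1 none were called, and without CMP 2, 1 was called. Ift122 (1.57 ± 0.364, adjusted p = 0.00948) and Bbs2 (-0.94 ± 0.263, adjusted p = 0.0258) lost their calls without CMP 1 (adjusted p = 0.0626 for Ift122, 0.152 for Bbs2) or CMP 2 (0.0649 and 0.0529).

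The groups could be compared within a slide only where 1 slide held both. Of 302 called genes chosen from these lists by a fixed rule, 302 differed in the same direction between CSP 5, CSP 6 and CMP 2 on slide 4. These arrays are also part of the test of all 9, and CMP had 1 array there. Over all 3646 called genes, 6 differed in the opposite direction on slide 4. Within it, Erg differed by 3.81, Procr by 5.02, Ptgs2 by 2.28, Trp63 by -3.59 and Ddr1 by -3.22. With the slide as a fixed block, 793 genes were called, 84 of the 302 among them. On leaving out each array in turn, 228 of the 302 stayed called throughout.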

How the data were processed

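Per the file headers, the deposited scanner files give the intensity of both channels for each of 45018 spots, extracted with Agilent Feature Extraction 9.5.1.1; the submitters' processing notes name version 8.5.1.1. From the mean intensities, background was corrected with limma 3.58.1 (R 4.3.3; normexp, offset 50) and dyes were balanced by loess within each array, with control spots at weight 0. Outlier spots were left out and spots of a probe averaged, which gave log2 ratios of Cy5 (sample) over Cy3 (reference); array number limits their precision. A probe was kept if 3 or more of the 9 arrays showed it well above the Cy5 background, and the brightest such probe stood for its gene. Array names were updated through RefSeq accessions (GRCm38.p6) for 22951 probes; the array's own coordinates are of mm7. CSP and CMP were compared with lmFit and eBayes over 6 and 3 arrays, with Benjamini-Hochberg adjustment over 20257 genes. The call was also run on simulated data with independent noise on each array. Effects shared by a slide, or an array apart such as CSP 6, were not simulated. A fold given as "at least" sets the bright group's mean, per channel after loess and Aquantile, against the dimmest detected signal of the other group's arrays or the probe's own if higher, and with no dye swap it is open to dye bias. The authors' deposited log2 ratios have an unstated centring (column medians 0.16 to 0.28 over the 9 arrays) and direction as here. Of their columns, 4 for CSP (2 to 5) correlated best with the scanner file of another CSP array. The numbers of these arrays are thus uncertain, and those in the text follow the scanner files. The deposited values served as an alternative only.

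Lists and rules were chosen with earlier results of these data known. Named were the 12 largest increases and decreases among called, non-overlapping genes with a symbol that are well above background on every array of the higher group, 16 genes known from the earlier results left out; in each list, core genes, called or not, and up to 4 called genes per direction; and markers as examples. The core genes Plxnd1, Ret and Bbs1 were not tested. By the scanner file numbers, same-numbered arrays of both groups deviated from their group means with correlations of 0.14, -0.254 and -0.264 across genes. By the best matches of the deposited columns, CMP 2 would go with scanner file CSP 3 (0.234) and CMP 3 with CSP 5 (0.0749). These values do not settle whether the numbers pair the arrays, and the main test used no pairs. Alternatives covered background, normalization, filter, probe choice, slide, replicate number, variance model, the 18 arrays together, the deposited values and leaving out each array. A few genes and 1 family are not reported here.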

Additional observations from a re-analysis of the deposited data

Results flagged for a closer look

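Some families and genes had 1 side population array far from the other 5: the gap of the highest or lowest array to its neighbour, over the whole range of the group, passed Dixon's 95% critical value. This was tested on the medians of 50 lists and on 225 genes named above, and chance alone gives such a gap in about 1 of 20 groups. The CMP group, with 3 arrays, was not tested.

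Among the lists, CSP 6 stood at 1.70 for the median of the thyroid follicular markers, with the next array at 0.13. CSP 5 was high for the GATA and Krüppel-like factors (0.22, next -0.04), CSP 3 was high for sphingosine phosphate and lysophosphatidic acid genes (0.69, next 0.21), and CSP 1 was low for potassium channels (-0.41, next -0.27).

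Of the 20 genes, 13 had CSP 6 as the array apart. It was the highest, at the log2 ratio given, for the thyroid enzyme Dio1 (0.47, next -1.13), the collagen receptor Ddr1 (0.26), the factors Elf3 (2.28) and Foxn1 (1.23), the cytokine Lta (3.28), the sodium transport genes Atp1b1 (-1.83), Fxyd4 (0.23) and Scnn1a (-0.24), the carrier Slc16a11 (1.19) and Clip4 (-0.27). CMP exceeded CSP in each of these 10. CSP 6 was the lowest for the lipid receptor Lpar4 (-0.16), the protocadherin Pcdh7 (1.59) and the semaphorin Sema6d (-0.15), which were higher in CSP than in CMP. For these genes CSP 6 thus lay on the side of the CMP arrays, and leaving CSP 6 out raised the number of called genes to 3763.

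The other 7 genes were spread over arrays. CSP 3 was highest for Bbs2 (0.37), Peg12 (2.40) and Slc10a6 (2.82). CSP 5 was highest for Plxna4 (2.36), CSP 4 was highest for Foxf1 (1.95) and lowest for Thra (-1.13), and CSP 2 was highest for Cd81 (0.35).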

How the results depend on the processing

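In 20 of the 42 families, leaving out 1 array moved the count of called members by over 1.5 times, most often CMP 2 (15 families) or CMP 1 (12). Leaving out each array in turn, 2280 (without CMP 2) to 3763 (without CSP 6) genes were called, 1141 to 1986 higher and 1139 to 1813 lower; without CMP 1 there were 2299. Median centring without loess gave 2608 lower and 1358 higher genes, and 19 families with more higher than lower members in place of 30; the cause was not tested. With the slide as a fixed block, 793 genes were called, 462 higher and 331 lower. In that fit the differences rest on the 3 arrays of slide 4, and the spread also on CSP 1 to CSP 4, on slides 1 and 3. Within slide 4 alone, limma called 0 genes in all, 0 higher and 0 lower, and 0 families had more higher members, while 4322 genes had an unadjusted p under 0.05. Without slides 1 and 5, chosen after seeing the data, 2403 were called and 1070 were lower. A replicate block by the scanner file numbers, which may not pair the arrays, left 2540 called. Under the other alternatives 2810 to 3707 genes were called, and no named gene that was called reversed its direction under any setting. Beside the losses given with the results, Epha2 and Hs6st2 lost their calls with the scanner software's processed signals. Has2 and Sufu lost theirs with the mean of their probes, and Lpar2 with the authors' deposited values. The replicate block ended the calls of Adgre1, Cd68, Slc16a3, Atp6v0c and Unc5b, and left no vacuolar proton pump gene called. Adgre1 and Slc16a3 also lost theirs with all 18 arrays. Elf3, Krt18, Tek, Fas, Fxyd4, Pcdh17, Psmd10, Cd68 and Scg2 lost theirs without slides 1 and 5. Of the genes given as not called, Cav1 was called without slide 1, Efnb2 without slides 1 and 5, Gja1 and S100a6 with the replicate block and Rab17 with the deposited values.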
